A study of Oryza sativa Japonica Group with 20 samples.

Results

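Alpha-expansins are small secreted proteins that loosen the plant cell wall at acid pH without cutting its polymers, so that turgor can stretch the cell. They form a large gene family in rice, and several of its members were first described in the elongating internodes and coleoptiles of rice, where gibberellin (GA) promotes growth. In the GA pathway the hormone binds its receptor, and the bound receptor targets the DELLA protein SLR1, a repressor of GA responses, for degradation. The values here are the RNA levels of 10 alpha-expansin genes in seedlings of Japonica rice (Oryza sativa). The genes were chosen by locus ID: EXPA1 (LOC_Os04g15840), EXPA2 (LOC_Os01g60770), EXPA3 (LOC_Os05g19570), EXPA4 (LOC_Os05g39990), EXPA5 (LOC_Os02g51040), EXPA6 (LOC_Os03g21820), EXPA7 (LOC_Os03g60720), EXPA8 (LOC_Os01g14650), EXPA10 (LOC_Os04g49410) and EXPA32 (LOC_Os08g44790). They are 10 of the 34555 genes listed in either of the 2 RNA tables.

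RNA was sequenced from whole seedlings in 4 groups of 3 libraries. One experiment compared 12-day-old seedlings of a SLR1 knockout, slr1, with wild type (labelled NIP). The other compared wild-type seedlings given 100 uM GA through the roots for 1 h with untreated wild-type control seedlings, whose age the sources used here do not give. They give neither the kind of slr1 mutation nor whether the mutant is 1 line or several, and no label says whether replicates were separate plants, so p-values measure the spread between these libraries, which may be technical. The 2 tables were normalized separately and are compared with each other only side by side. H3K27me3 peaks of the series were not used here, because nothing places the locus IDs on the coordinates of the peaks.

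The libraries of the slr1 experiment held between 26958961 and 29706818 normalised reads, and between 17919838 and 20979965 reads were assigned to genes in those of the GA experiment. Normalised reads are reads per gene divided by the size factor of the library. SLR1 RNA (LOC_Os03g49990) stood at 6761 ± 605 normalised reads in wild type and at 7044 ± 580 in slr1 (SD, n = 3 each; limma adjusted p = 0.759), so its level did not check the knockout label. Counting noise alone would give squared differences between replicates, over their sum, of about 1, and they averaged 18.6 to 88.1 in the slr1 experiment and 1.85 to 3.004 after GA and in its controls. Of 6 root markers, only Lsi1, a silicon transporter, reached the level tested in both experiments, and AMT1;2, an ammonium transporter, was listed in neither table. Leaf markers were abundant in both, but CAB1R, a light-harvesting protein gene, lay between 1344 and 2452 normalised reads in wild type and between 165207 and 172591 in control. CAB2R, another light-harvesting gene, lay between 1720 and 2749 in wild type and between 171184 and 183308 in control. PCNA, a dividing-cell marker, went the other way, with means of 2074 and 440. A Rubisco gene, LOC_Os12g19381, was closer, with means of 251401 and 213478. Control libraries summed to 19507623 to 19631656 normalised reads, less than any wild-type library, so such close means give no direction. The untreated seedlings of the 2 experiments thus stood apart in more than CAB1R.

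Setting slr1 beside wild type addresses how the family stands in seedlings labelled as a knockout of the DELLA gene. The members EXPA1, EXPA2, EXPA4 and EXPA6 rose in slr1, by 2.74-fold to 8.89-fold, and EXPA5 fell to 0.299 of its wild-type level. EXPA7 and EXPA10 did not pass, and EXPA3, EXPA8 and EXPA32 were below the level tested. A gene was called at a limma adjusted p under 0.05 with at least a 2-fold difference. Of all 25132 genes tested, 6.57% were called higher and 7.14% lower, 13.7% in all. Among the tested members 4 had slr1 libraries all above wild type and 1 had them all below, where 22.8% and 22.3% of all genes did. The 7 tested members had a median log2 fold change of 1.45, beside 0.01 for all genes tested. A gene was tested where at least 3 of the 6 libraries reached 10 normalised reads. EXPA1 reached that in 2 wild-type libraries and so needed its slr1 libraries to be tested, and the median of the other 6 tested members was 0.82, with 3 called higher and 1 lower. In whole seedlings, a difference in the share of elongating cells and a difference in RNA per cell cannot be told apart.

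EXPA4 is an expansin whose RNA is known to be raised by GA in the internodes of deepwater rice. Wild-type libraries held 2065, 1936 and 1449.7 normalised reads of it, and slr1 libraries 12249, 7762 and 7083. Every slr1 library lay above every wild-type library, with the lowest slr1 value 3.43 times the highest wild-type value. The fitted difference was 4.88-fold (95% interval 3.32 to 7.17, n = 3 each), or 2.29 ± 0.24 (SE) on the log2 scale, at a limma adjusted p of 0.00229. This call held without any 1 library, with a highest adjusted p of 0.0148.

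EXPA2 stood at 905, 460.0 and 415 normalised reads in wild type and at 5864, 2569 and 2579 in slr1. The groups did not overlap, and in each of them replicate 1 was the highest. The rise was 6.07-fold (95% interval 3.13 to 11.8), 2.60 ± 0.41 (SE) on the log2 scale with a limma adjusted p of 0.00630, and also held without any 1 library (highest adjusted p = 0.0315).

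EXPA1 had low levels in wild type, at 33.9, 6.39 and 16.3 normalised reads, against 270, 72.4 and 156 in slr1. Within wild type the libraries differed by more than in any other tested member, with a coefficient of variation of 73.9%. The rise of 8.89-fold therefore had a wide 95% interval, 3.002 to 26.3, and was 3.15 ± 0.66 (SE) on the log2 scale, with a limma adjusted p of 0.0154. Without wild-type replicate 3 the log2 fold change was 3.19 and the call ended, at an adjusted p of 0.0558. With 1 wild-type library under the level tested, at 6.39, EXPA1 was tested only with the help of its slr1 libraries. Its p-value and call carry that selection.

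EXPA6 showed close wild-type values, 164, 131 and 156 normalised reads, and spread ones in slr1, 612, 251 and 449.6. All 3 slr1 libraries were above the wild-type range. The rise was 2.74-fold (95% interval 1.63 to 4.58), 1.45 ± 0.32 (SE) on the log2 scale, with a limma adjusted p of 0.0170. Without wild-type replicate 3 it was 1.48 on the log2 scale and no longer passed (adjusted p = 0.0593).

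EXPA5 moved the other way. It stood at 584, 338 and 494 normalised reads in wild type and at 281, 83.2 and 109.7 in slr1, so each slr1 library was below the lowest wild-type one. The log2 fold change was -1.74 (SE 0.45, limma adjusted p = 0.0307), with a 95% interval of 0.144 to 0.623 for the ratio of slr1 to wild type. Of the 6 fits with 1 library left out it was called in 2, those without replicate 2 of wild type or replicate 1 of slr1, with a highest adjusted p of 0.101.

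EXPA7 and EXPA10 have been studied in rice for salt tolerance and for the root response to aluminium, respectively. EXPA7 was at 898, 589.9 and 1000.3 normalised reads in wild type and at 966, 546 and 254 in slr1, and its groups overlapped. Its log2 fold change of -0.66 (SE 0.46) did not pass (limma adjusted p = 0.332), and the 95% interval of the ratio, 0.298 to 1.35, includes both a 3-fold fall and no difference. EXPA10 was at 407, 415 and 499 in wild type and 683, 509 and 353 in slr1, again with overlap. Its ratio was 1.13 (95% interval 0.763 to 1.68, limma adjusted p = 0.618), and the sign of its log2 fold change turned without slr1 replicate 1, to -0.0498. That interval lies within 2-fold in either direction.

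**Figure D1:**
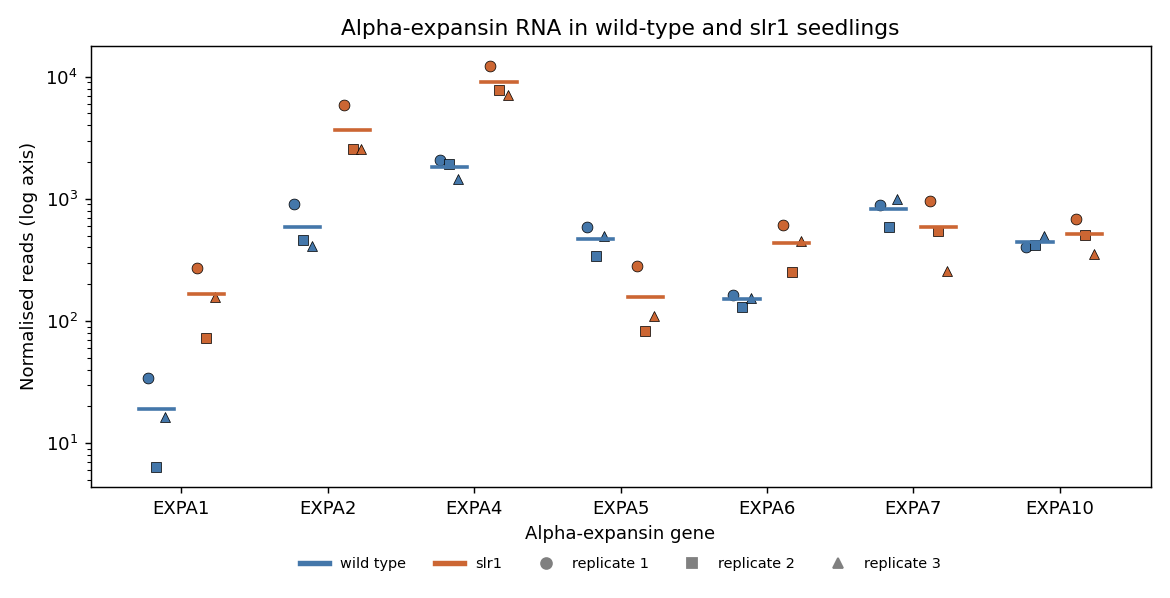
Normalised reads (log axis) of the 7 tested alpha-expansin genes in the 3 wild-type and 3 slr1 libraries; each point is 1 library, its shape gives the replicate and each bar the group mean. The slr1 points lie above all wild-type points for EXPA1, EXPA2, EXPA4 and EXPA6, below them for EXPA5, and overlap them for EXPA7 and EXPA10.

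The remaining 3 members were below 1 normalised read in every wild-type library. EXPA3 was at 0.968, 0 and 0 normalised reads in wild type and at 39.4, 0.978 and 4.86 in slr1, so 1 slr1 library held most of its signal. For EXPA3 the authors' deposited table gives a log2 fold change of 5.37 at an adjusted p of 0.0139. EXPA8, an expansin whose overexpression is known to change root architecture in rice, was at 0.968, 0 and 0 in wild type and at 15.1, 0 and 4.86 in slr1. For EXPA8 the authors' value is 4.19 at an adjusted p of 0.117. EXPA32 did not exceed 0.978 normalised reads in any library of this experiment. None of the 3 reached 10 normalised reads in 3 libraries, so they were not tested here.

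Replicate 1 of slr1 held the highest slr1 value for all 7 tested members, EXPA5 included, while it held the highest slr1 value for 36.9% of all genes tested. In wild type, replicate 1 was highest for 5 of the 7 members and for 28.8% of all genes. Without slr1 replicate 1 the 4 rising members and EXPA5 were all still called, with log2 fold changes of 2.71 for EXPA1, 2.21 for EXPA2, 2.04 for EXPA4, 1.17 for EXPA6 and -2.26 for EXPA5. The count of called members, 5, ranged from 2 to 5 when 1 library was left out, and the lowest came without wild-type replicate 3, where EXPA2 and EXPA4 were called. Without that library the calls over all genes also dropped, from 3446 to 2174.

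**Figure D2:**
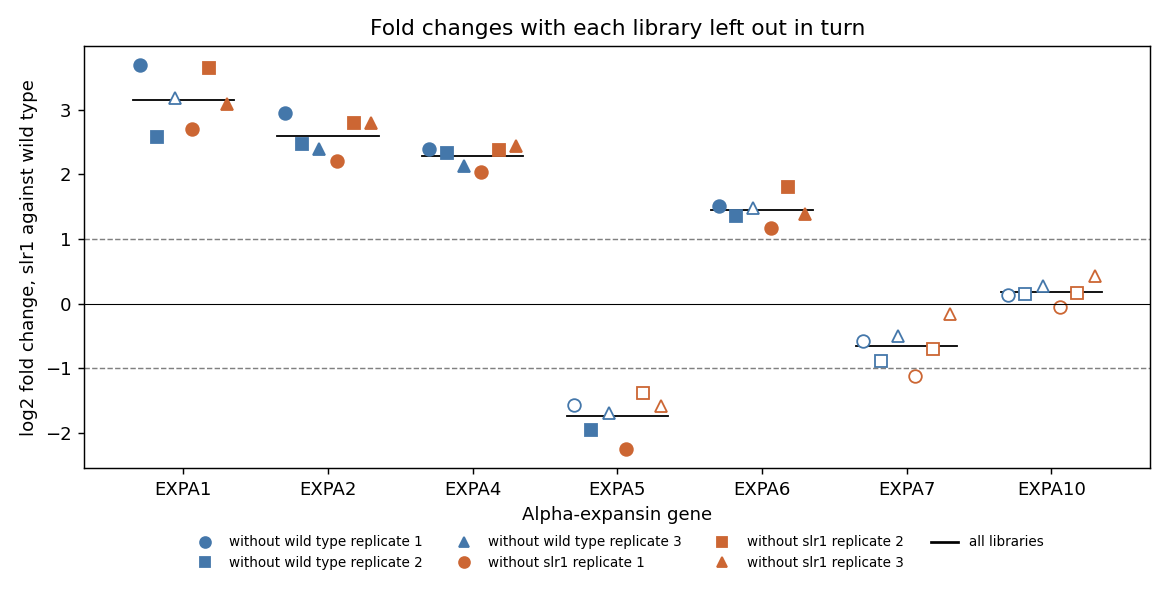
Log2 fold change (limma) of the 7 tested members in slr1 against wild type, with each of the 6 libraries left out in turn; filled symbols are called, open symbols are not, black lines give the value with all libraries and dashed lines a 2-fold difference. EXPA2 and EXPA4 stayed called in all 6 fits, EXPA1 and EXPA6 in 5, and EXPA5 in 2.

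Tissue markers differed between the same libraries. Of 7 leaf markers, 4 were called lower in slr1 and 0 higher, where 7.14% and 6.57% of all genes tested were. The 4 were 3 genes of the small Rubisco subunit, which are near-identical copies that may share reads, and RCA, the Rubisco activase gene. With 1 library left out, 1 of them was called without wild-type replicate 3, 2 without wild-type replicate 2 or slr1 replicate 2, and 3 or 4 otherwise. Their list summed to between 458766 and 779018 normalised reads in wild type and between 114356 and 263910 in slr1. The 5 listed root markers summed to 194 to 306 in wild type and 258 to 338 in slr1, most of it Lsi1, with the nitrate transporter genes NRT2.1 and NRT2.2 at 0 in every wild-type library and at most 1.01 in slr1. Of the 4 dividing-cell markers (3 B-type cyclins and PCNA), 0 were called by limma. An unadjusted limma p under 0.05 was found for 0 of them and for 9695 of all 25132 genes tested. The sums of these markers overlapped, at 2687 to 4641 in wild type and 1620 to 2998 in slr1. The part of these tissue differences in the expansin values was not tested.

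Seedlings given GA for 1 h, beside their controls, show the early state of the family after the hormone. No member reached the 2-fold minimum, but 5 of the 7 tested were higher after GA on adjusted p alone: EXPA6 by 1.89-fold, EXPA4 by 1.29-fold, EXPA10 by 1.25-fold, EXPA2 by 1.20-fold and EXPA7 by 1.11-fold. None was lower. On adjusted p alone 17.1% of the 23283 genes tested were higher and 15.9% lower. With the 2-fold minimum 2.22% were called, and 1.22% were called higher. The count of called members was 0 with limma, edgeR and DESeq2. An unadjusted limma p under 0.05 was found for 6 members and for 9670 of the 23283 genes tested. On adjusted p alone edgeR gave 5 members higher and DESeq2 4, without EXPA7 (DESeq2 adjusted p = 0.0874). The median log2 fold change of the 7 members was 0.26, beside -0.01 for all genes tested. Replicates were close here, with a median coefficient of variation over the members of 7.56% in control and 4.13% after GA, against 25.8% in wild type and 51.7% in slr1, so small differences could pass.

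EXPA6 was the member nearest to the 2-fold minimum. It stood at 127, 114 and 134 normalised reads in control and at 241, 246 and 223 after GA, and the lowest GA library was 1.66 times the highest control library. The log2 fold change was 0.92 (SE 0.11, n = 3 each, limma adjusted p = 3.47e-08), with a 95% interval of 1.62 to 2.198 for the fold, which includes the 2-fold minimum. Leaving out any 1 library gave 0.85 to 0.97.

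EXPA4 stood at 2874, 3149.8 and 2873 normalised reads in control and 3979.5, 3785 and 3727 after GA. The groups did not overlap, and the log2 fold change was 0.37 (SE 0.04, limma adjusted p = 9.00e-10). EXPA2 stood at 1352, 1303 and 1367 in control and 1557, 1624 and 1645 after GA, again without overlap (0.26 ± 0.04 SE on the log2 scale, limma adjusted p = 7.26e-06). The 95% intervals of the folds, 1.23 to 1.36 for EXPA4 and 1.13 to 1.27 for EXPA2, lie well under 2.

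EXPA10 was at 198, 206 and 229.6 normalised reads in control and 263, 283 and 244 after GA (log2 fold change 0.32, SE 0.09, limma adjusted p = 0.00879). Without GA replicate 2 it did not pass, at an adjusted p of 0.0585. EXPA7 was at 777, 849 and 789.7 in control and 910.3, 872 and 893 after GA, a log2 fold change of 0.15 (SE 0.05, limma adjusted p = 0.0274) that passed in 2 of the 6 fits without 1 library, those without replicate 2 of either group (highest adjusted p of the others 0.118). For these 2 genes the authors' deposited table gives adjusted p-values of 0.0547 and 0.117.

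EXPA5 was at 184, 206 and 179 normalised reads in control and 231, 217 and 215 after GA. Its groups did not overlap either, but its log2 fold change of 0.22 (SE 0.10) did not pass (limma adjusted p = 0.0847). Groups that do not overlap in the higher direction occurred in 6 of the 7 tested members and in 21.7% of all genes tested. EXPA1 was at 45.4, 39.2 and 40.1 in control and 57.8, 43.7 and 46.1 after GA. These ranges overlapped, and the fold of 1.17 had a 95% interval of 0.876 to 1.57 (limma adjusted p = 0.431).

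**Figure D3:**
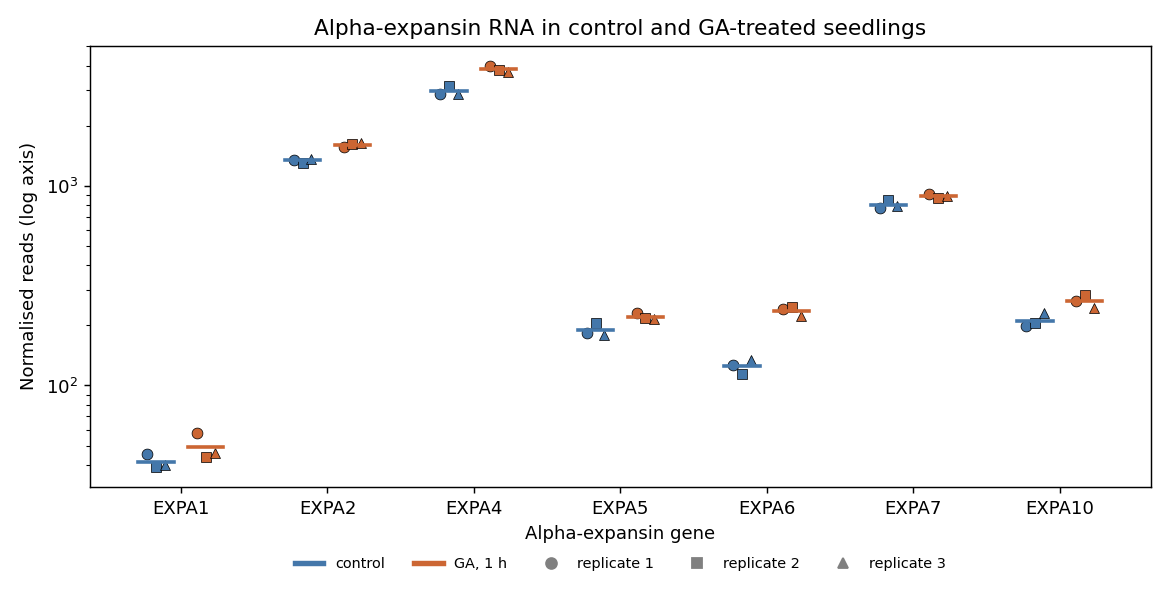
Normalised reads (log axis) of the 7 tested alpha-expansin genes in the 3 control libraries and the 3 libraries given GA for 1 h; each point is 1 library, its shape gives the replicate and each bar the group mean. EXPA6 shows the widest gap between groups, from at most 134 in control to at least 223 after GA, and EXPA1 is the gene whose groups overlap.

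EXPA8 stood at 2.06, 0.932 and 1.87 normalised reads in control and 0, 0.972 and 0 after GA. EXPA32 stood at 1.03, 0.932 and 0 in control and 1.07, 0 and 2.09 after GA. Both are levels of 1 or 2 reads per library and were not tested. EXPA3 was not listed in the table of the GA experiment.

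Set side by side, the called rises in slr1 concerned EXPA1, EXPA2, EXPA4 and EXPA6, and of these EXPA2, EXPA4 and EXPA6 were also higher after 1 h of GA on adjusted p alone. EXPA1, which needed its slr1 libraries to be tested there, had a log2 fold change of 3.15 in slr1 and 0.23 after GA. EXPA5 had -1.74 in slr1 and 0.22 after GA. The experiments differ in their seedlings and their normalization, and the difference between the fold changes was not tested. The mean EXPA1 level of the untreated seedlings was 18.8 ± 13.9 normalised reads in wild type and 41.6 ± 3.37 in control, and that of EXPA2 593 ± 271 and 1341 ± 33.3 (SD, n = 3 each). EXPA4 was also lower in wild type. EXPA5 went the other way, at 472 ± 125 and 190 ± 14.3, as did EXPA10, at 440 ± 51.1 and 211 ± 16.4. The means of EXPA6, 150 in wild type and 125 in control, and of EXPA7, 829 and 805, were closer. Control libraries summed to fewer normalised reads than any wild-type library, so these close means give no direction.

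**Figure D4:**
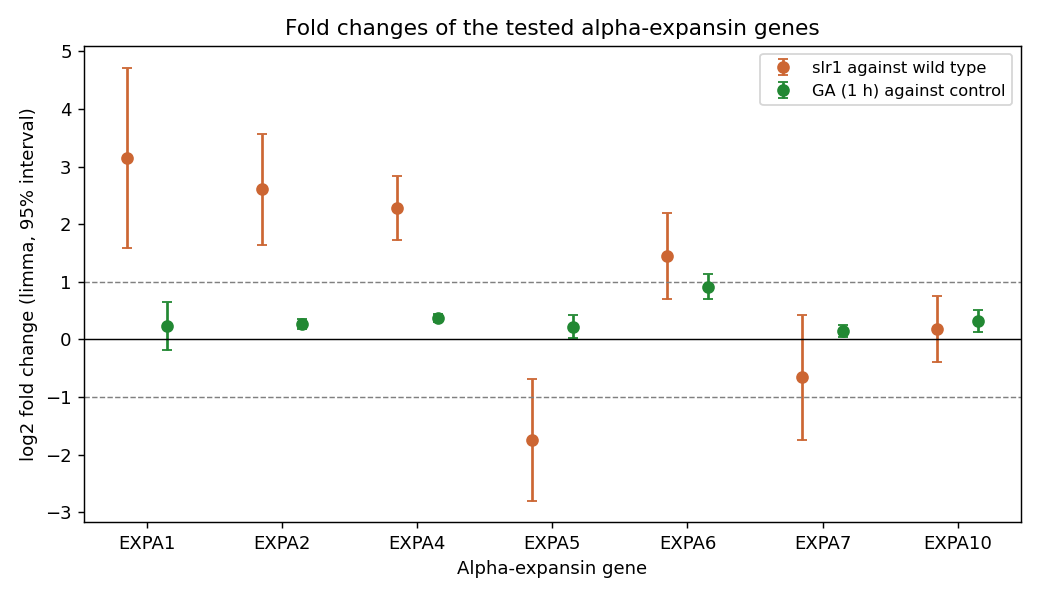
Log2 fold change of the 7 tested members in slr1 against wild type and after GA (1 h) against control, each fitted by limma within its own table, with 95% intervals; dashed lines mark a 2-fold difference. In slr1 the values run from -1.74 for EXPA5 to 3.15 for EXPA1, and after GA from 0.15 for EXPA7 to 0.92 for EXPA6.

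Markers also differed after GA, by less than 2-fold. All 4 dividing-cell markers were higher on adjusted p alone, where 17.1% of all genes tested were. Their sum lay between 1259 and 1305 normalised reads in control and between 2022 and 2221 after GA. All 7 leaf markers were lower on adjusted p alone, where 15.9% of all genes tested were. The log2 fold changes of these 7 lay between -0.33 and -0.09. Their sum lay between 1384179 and 1396126 in control and between 1228797 and 1240912 after GA. The 2 tested root markers did not pass, and the 3 listed ones summed to 361 to 427 in control and 333 to 371 after GA, with NRT2.2 at 0 in every GA library. The part of these markers in the expansin values was not tested.

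**Figure D5:**
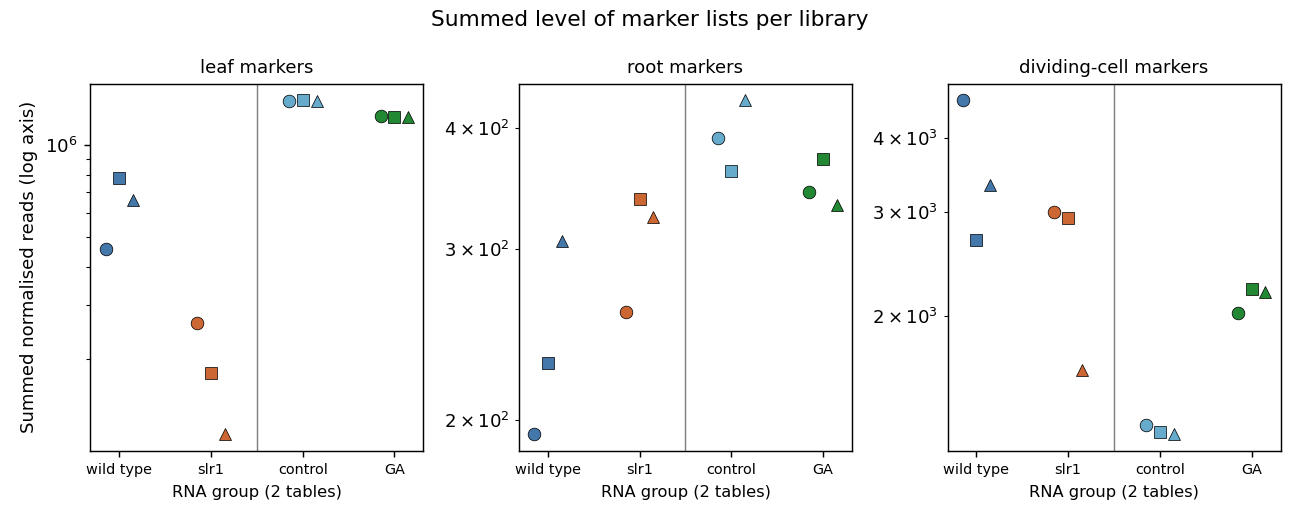
Summed normalised reads (log axis) of the leaf, root and dividing-cell marker lists in each of the 12 RNA libraries, with shapes for replicates 1 to 3; the vertical line parts the 2 tables, which were normalized separately and list different numbers of root markers. Leaf sums are below all wild-type libraries in slr1, and dividing-cell sums are above all control libraries after GA.

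Other genes of wall growth were read from a list of 31 loci, written from general knowledge with earlier results of these data known. Their names were not checked against an annotation. In slr1, 10 of the 19 tested were called higher and 0 lower, where 6.57% and 7.14% of all genes tested were. Without the 3 genes that reached 10 normalised reads in all libraries of 1 group and not in all of the other, 8 rose and 0 fell. The 10 were 6 of 10 beta-expansins (the grass-rich sister group of the alpha-expansins), all 3 cellulose synthases of the secondary wall, and LOC_Os01g14660, listed as another alpha-expansin. Without EXPB5, 5 of 9 beta-expansins were called. Without slr1 replicate 1, 6 rose and EXPB16 (LOC_Os02g42650) was called lower. EXPB2 (LOC_Os10g40710) stood at 37.8, 23.4 and 11.2 normalised reads in wild type and at 741, 522 and 1013 in slr1 (5.02 ± 0.44 SE on the log2 scale, limma adjusted p = 0.00158). EXPB11 (LOC_Os02g44108) stood at 361, 356 and 166 against 4691, 2958 and 1840.3, and EXPB3 (LOC_Os10g40720) at 1755, 1668 and 956 against 18231, 9665 and 8869. In these 3 genes every slr1 library was at least 5.05 times the highest wild-type library.

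EXPB6 (LOC_Os10g40700) rose from 211 ± 106 to 1440 ± 905 normalised reads (SD, n = 3 each). EXPB5 (LOC_Os04g46650) stood at 1.37 ± 0.657 in wild type and 37.5 ± 29.2 in slr1. LOC_Os01g14660, whose ID is next to that of EXPA8, had 11.1, 16.6 and 28.2 normalised reads in slr1 and was listed at 0 in each of the 3 wild-type libraries. It and EXPB5 reached the level tested through their slr1 libraries alone. Both are counted among the 10 called but not among the 8, and no test result of their own is given. Of the other 14 alpha-expansin loci in the list, 2 more were tested in slr1 and neither passed. The 3 cellulose synthases of the primary wall did not pass, with log2 fold changes between 0.27 and 0.75. Those of the secondary wall lay just over the 2-fold minimum, between 1.07 and 1.15. The difference between these sets was not tested. Whether reads of near-identical neighbouring copies could be split between them is not stated in the sources.

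After GA, 1 of the 18 tested genes of the list was called, LOC_Os01g14660, at 10.3, 8.39 and 6.53 normalised reads in control and 21.4, 18.5 and 16.7 after GA. It reached 10 in 1 control library and so needed its GA libraries to be tested, and without it 0 genes of the list were called. Its call ended without control replicate 3 or GA replicate 1. On adjusted p alone 10 were higher, 8 of them beta-expansins, and 4 were lower, among them all 3 cellulose synthases of the secondary wall. Of all genes tested, 17.1% were higher and 15.9% lower on adjusted p alone, and 1.22% were called higher. The median log2 fold change of the 9 tested beta-expansins was 0.52 after GA and that of the 10 tested in slr1 was 2.06, or 1.40 without EXPB5.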

How the data were processed

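The RNA libraries were aligned and counted with HISAT2 and featureCounts 2.0.0 and compared with DESeq and DESeq2 1.38.3, per the submitters' processing notes. The sources used here give no build, annotation or strand setting. The deposited value of each library is a signal: the reads of a gene over the size factor of that library. The authors' deposited tables also give a mean signal, a log2 fold change with its error, a score (the test statistic) and p-values with adjusted p-values. No column came from other samples.

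A gene was tested where 3 or more of the 6 libraries reached a value of 10, with limma 3.58.1 (R 4.3.3) on log2(value + 1) with a trend, within each table, with Benjamini-Hochberg adjustment over all genes tested. The pseudocount makes fold changes of low genes too small. SE and 95% intervals are limma's. The script was tested on simulated data.

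In the GA experiment 100% of values were whole multiples, within 0.01, of 1 step per library, so reads were recovered and edgeR 4.0.16 (quasi-likelihood, TMM) and DESeq2 1.42.0 were run as alternatives. Reads of the slr1 experiment were not recovered, since the step of 1 library lay too close to 1 for the criterion used, and these tools were not run there.

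The members and lists were chosen with earlier results of these data known. All 10 members are named. Of the other wall genes, called ones are named, at most 6 per comparison with the largest fold changes first. The reference gene table matched 0 of the 10 locus IDs, so gene positions, lengths and sequences are not used here, and levels are not compared between genes.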

Additional observations from a re-analysis of the deposited data

How the results depend on the processing

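Of the 84 fold changes of members under alternatives in slr1, 77 kept direction and call, and 6 lost the call, each without 1 library. EXPA10 ranged from -0.0498 (without slr1 replicate 1) to 0.43 without 1 library and was called in none. After GA, where edgeR and DESeq2 were also run, all 97 kept direction and side of the threshold. Both counts leave out the setting without the 2-fold minimum, under which 5 members after GA gained a call. Apart from EXPA6, no member exceeded 1.29-fold after GA, so staying uncalled says little of how steady these differences were. On adjusted p alone EXPA7 passed in 2 of the 6 fits without 1 library, and EXPA10 in 5. Without the 2-fold minimum, called members after GA went from 0 to 5, other wall genes from 1 to 14, markers from 0 to 11 and all genes from 516 to 7681, and all genes in slr1 from 3446 to 6248. The 1 other wall gene called after GA became 0 with a pseudocount of 10, with a minimum of 50 or with DESeq2, and ranged from 0 to 1 without 1 library. All genes called after GA came to 233 with a pseudocount of 10, 806 with no filter and 208 with a minimum of 50. Without 1 library, called members in slr1 ranged from 2 to 5, other wall genes there from 7 to 10, markers from 1 to 4 and all genes from 2174 to 3194. TMM scaling moved the median over all genes in slr1 from 0.01 to 0.03 on the log2 scale. Deviations of same-numbered libraries correlated at -0.16 to 0.19 in the slr1 experiment and at -0.03 to -0.01 in the GA experiment. With 3 libraries per group, these correlations cannot tell whether the replicate numbers pair the samples. A replicate block left 5 called members in slr1, 0 after GA, and 2 of the 4 markers called in slr1. All genes called with the block were 3137 in slr1 and 506 after GA. edgeR and DESeq2 were not run on the slr1 experiment. Added after seeing the data, adjusted p alone gave 5 members after GA with edgeR and 4 with DESeq2, and leaving out genes that reached 10 in all libraries of 1 group and not in all of the other gave 4 called members and 8 other wall genes in slr1, and 0 and 0 after GA. Members below the level tested were not tested here. Groups had 3 libraries, so single libraries were not tested for standing apart.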
